A study of Bos taurus with 18 samples.

Results

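Amino acid transporters of 6 SLC families were followed along the bovine epididymis. The genes were those whose symbol is SLC1A, SLC6A, SLC7A, SLC36A, SLC38A or SLC43A followed by a number, on probe sets that name 1 gene, with the brightest probe set for each gene. This gave 54 genes on 55 probe sets, of 18010 named genes and 26773 probe sets. They were 7 SLC1A, 18 SLC6A, 12 SLC7A, 4 SLC36A, 10 SLC38A and 3 SLC43A genes. The symbols set which genes were listed, and mean signal chose between probe sets of a gene. The families were chosen with earlier results of these data known. Several of the symbols belong to carriers of monoamines, creatine or nucleobases rather than amino acids.

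Sperm mature and are stored in the epididymis, a long coiled duct behind the testis. RNA from its cauda (tail), corpus (body) and caput (head) was hybridised to a bovine gene array. The tissue came from 3 Holstein bulls of medium-low fertility and 3 of high fertility, which gave 6 groups of 3 arrays: medium-low cauda, high cauda, medium-low corpus, high corpus, medium-low caput and high caput. Bulls were aged 51 to 71 months, no treatment was applied, and fertility was the non-return of inseminated cows to service at 56 days. The samples were pieces of slaughterhouse tissue that hold every cell type of the duct wall and its contents, so fewer cells of a type and less RNA per cell cannot be told apart. The labels do not say whether a replicate number marks a bull, and p-values measure the spread between these arrays.

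Amino acid carriers work as sets in an epithelium. Sodium-driven carriers of SLC1A, SLC6A and SLC38A load the cell, exchangers of SLC7A trade one amino acid for another, and SLC36A and SLC43A proteins move amino acids with protons or by facilitated diffusion. Most SLC7A light chains reach the membrane only when bound to a heavy chain, SLC3A2 or SLC3A1. The epididymal epithelium is known for a luminal fluid rich in glutamate, taurine and carnitine, whose composition changes along the duct, and for glutathione metabolism that protects stored sperm.

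Within a group, arrays correlated over all probe sets at 0.978 to 0.990, except in the medium-low caput. There, replicates 1 and 2 correlated with replicate 3 at 0.951 and 0.958. In several transporters these 2 caput arrays stood apart from the other 4 caput arrays, and results that rest on them are given with and without them. Of the other libraries, medium-low cauda replicate 3 was the lowest cauda array for several genes. Medium-low corpus replicate 2 had a mean caput epithelium level of 8.52 and a mean sperm level of 8.98, the highest of the 6 corpus arrays. All levels below are log2 signals, differences are log2 differences with the SE of the limma model, and a change was called at a Benjamini-Hochberg adjusted p under 0.05 over all 26773 probe sets. The lower quartile of the mean signal of all probe sets was 5.86, and 9 of the 54 genes lay below it (SLC1A7, SLC6A11, SLC6A15, SLC7A9, SLC7A14, SLC36A2, SLC36A3, SLC38A4 and SLC38A11). Such signals can be at background, so differences against them are not exact folds.

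The segments differed in many of these carriers. Of the 54, 15 rose and 7 fell in the cauda relative to the caput, against 17.2% and 15.1% of all probe sets called higher and lower. In the corpus relative to the caput 14 rose and 7 fell, where 19.5% of all probe sets were higher and 13.7% lower. In the cauda relative to the corpus 11 rose and 8 fell, against 12.1% higher and 12.3% lower over all probe sets. The median difference over the 54 was 0.06, -0.01 and -0.04 in these 3 comparisons, and 0.03, 0.06 and -0.04 over all probe sets. At least 1 segment comparison called 35 of the genes, and 19 were called in none, 6 of which were below the lower quartile of signal.

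The split between higher and lower calls depended on the scaling. For corpus over caput, higher calls were 66.7% of the calls as deposited, 38.9% with array medians subtracted, 47.1% after quantile and 43.8% after cyclic loess normalization. For cauda over corpus they were 57.9%, 68.8%, 73.3% and 73.3% in the same order, and for cauda over caput they were 66.7% to 69.6%. Under all 4 scalings 7 genes were higher and 7 lower in corpus than caput, 14 higher and 7 lower in cauda than caput, and 11 higher and 4 lower in cauda than corpus. The 7 higher calls in corpus over caput that were not made under all 4 were SLC1A6, SLC6A3, SLC6A7, SLC6A12, SLC6A13, SLC6A20 and SLC7A10. For cauda over caput the higher call of SLC6A20 was not made under all 4. The lower calls in cauda than corpus that were not made under all 4 were SLC1A6, SLC1A7, SLC6A7 and SLC38A5.

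**Figure D1:**
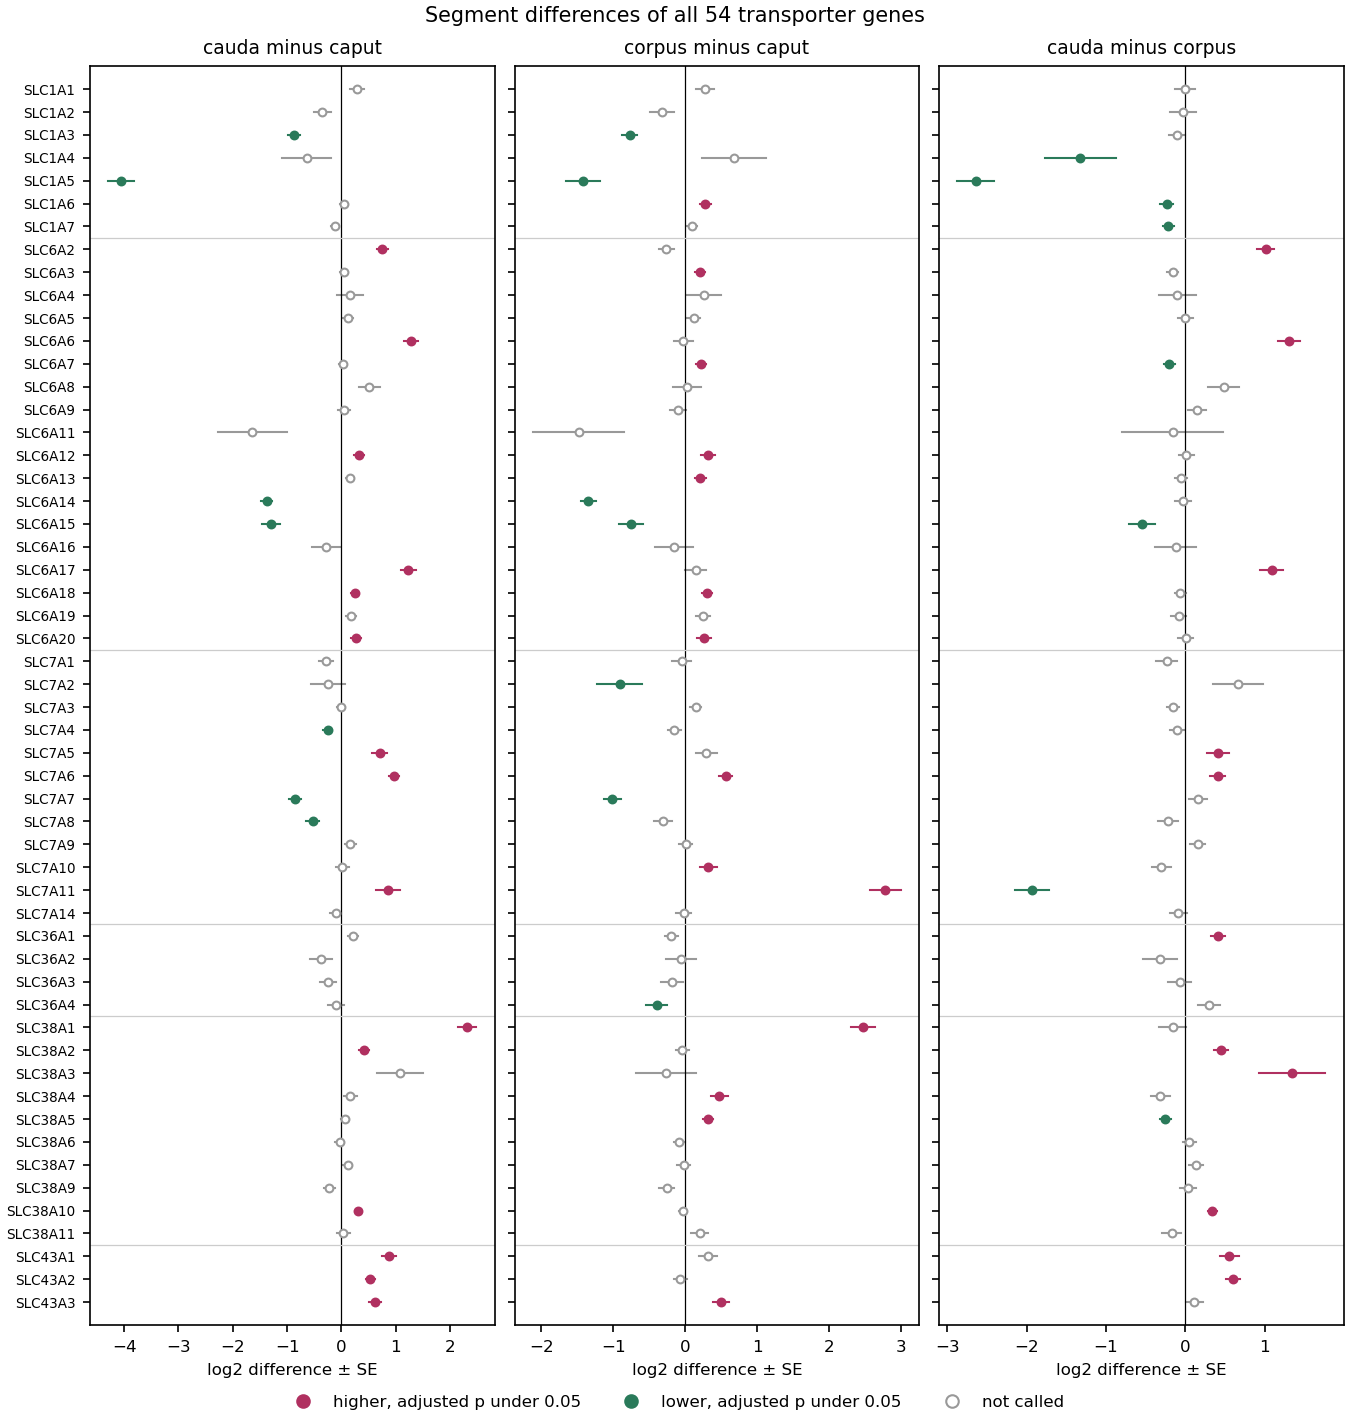
Log2 differences (x axis, ± SE of the model) of all 54 transporter genes (y axis, grouped by family) between cauda and caput, corpus and caput, and cauda and corpus. Filled points passed an adjusted p of 0.05. SLC1A5 lies at -4.06 for cauda minus caput, and SLC7A11 at 2.78 for corpus minus caput. Each panel has its own x scale.

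The calls fell into a few shapes along the duct. Carriers called lower than the caput in both later segments were SLC1A3, SLC1A5, SLC6A14, SLC6A15 and SLC7A7, 5 genes. Those called higher in both were SLC6A12, SLC6A18, SLC6A20, SLC7A6, SLC7A11, SLC38A1 and SLC43A3, 7 genes. Of these, SLC6A12 and SLC6A20 did not keep both calls under all 4 scalings. The cauda was called above both other segments in 9: SLC6A2, SLC6A6, SLC6A17, SLC7A5, SLC7A6, SLC38A2, SLC38A10, SLC43A1 and SLC43A2. The corpus was called above both others in 4, SLC1A6, SLC6A7, SLC7A11 and SLC38A5, and under all 4 scalings only in SLC7A11. Without medium-low caput replicates 1 and 2, these counts were 8, 8, 9 and 6.

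The SLC1A family holds the glutamate carriers and a pair of neutral amino acid exchangers, and its largest change was in one of the exchangers. SLC1A5 (probe set 12755837) exchanges glutamine and other neutral amino acids and is the main glutamine carrier of many growing cells. Its cauda arrays had a lowest, median and highest signal of 7.27, 8.15 and 8.28, its corpus arrays 9.88, 10.70 and 11.31, and its caput arrays 11.39, 12.18 and 12.35. The segments did not overlap, and the signal was lowest in the cauda and highest in the caput in both fertility groups. The difference was -4.06 ± 0.23 for cauda minus caput (limma, adjusted p = 8.86e-09), a 16.6-fold lower signal. It was -1.42 ± 0.23 for corpus minus caput (limma, adjusted p = 0.000307) and -2.64 ± 0.23 for cauda minus corpus (limma, adjusted p = 1.22e-06). Medium-low cauda replicate 3 was the lowest cauda array and medium-low caput replicate 1 the lowest caput array.

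SLC1A3, a glutamate and aspartate carrier, was also highest in the caput. Its signals were 6.07, 6.37 and 6.70 (lowest, median, highest) in the cauda, 6.31, 6.49 and 6.61 in the corpus and 6.86, 7.31 and 7.75 in the caput. All 6 caput arrays lay above all 12 later ones. It fell by 0.87 ± 0.10 in the cauda and by 0.77 ± 0.10 in the corpus relative to the caput (limma, adjusted p = 1.3e-05 and 6.15e-05). The other glutamate carriers SLC1A1 and SLC1A2 were not called (cauda minus caput 0.28 ± 0.12 and -0.35 ± 0.16), although without the 2 caput arrays SLC1A2 was lower in cauda than caput (-0.67 ± 0.15, limma adjusted p = 0.00339). SLC1A6 and SLC1A7, known from neurons and retina, were called with small differences and overlapping arrays, of which the largest was 0.28 ± 0.08 for corpus minus caput in SLC1A6 (limma, adjusted p = 0.0144).

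SLC1A4, the other neutral exchanger, which carries serine, alanine and cysteine, depended on the 2 caput arrays. Its signals were 7.86, 7.60 and 7.72 in medium-low cauda and 7.63, 7.64 and 7.88 in high cauda. In the corpus they were 9.18, 8.46 and 9.59 in medium-low and 9.17, 8.99 and 8.86 in high bulls. The caput gave 10.61, 10.56 and 7.12 in medium-low and 7.56, 7.11 and 7.23 in high bulls. Corpus arrays all lay above cauda arrays, whereas the caput held both the highest and the lowest signals of the gene. Cauda minus corpus was -1.32 ± 0.45 with all arrays (limma, adjusted p = 0.0436), a call lost when any one of 14 of the 18 arrays was left out, and -1.32 ± 0.16 without the 2 caput arrays (limma, adjusted p = 3.37e-05). Corpus minus caput was 0.68 ± 0.45 with them and did not pass, and 1.83 ± 0.19 without them (limma, adjusted p = 1.31e-05). The segment values against the caput and the caput values of SLC1A4 were chosen after they were seen.

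**Figure D2:**
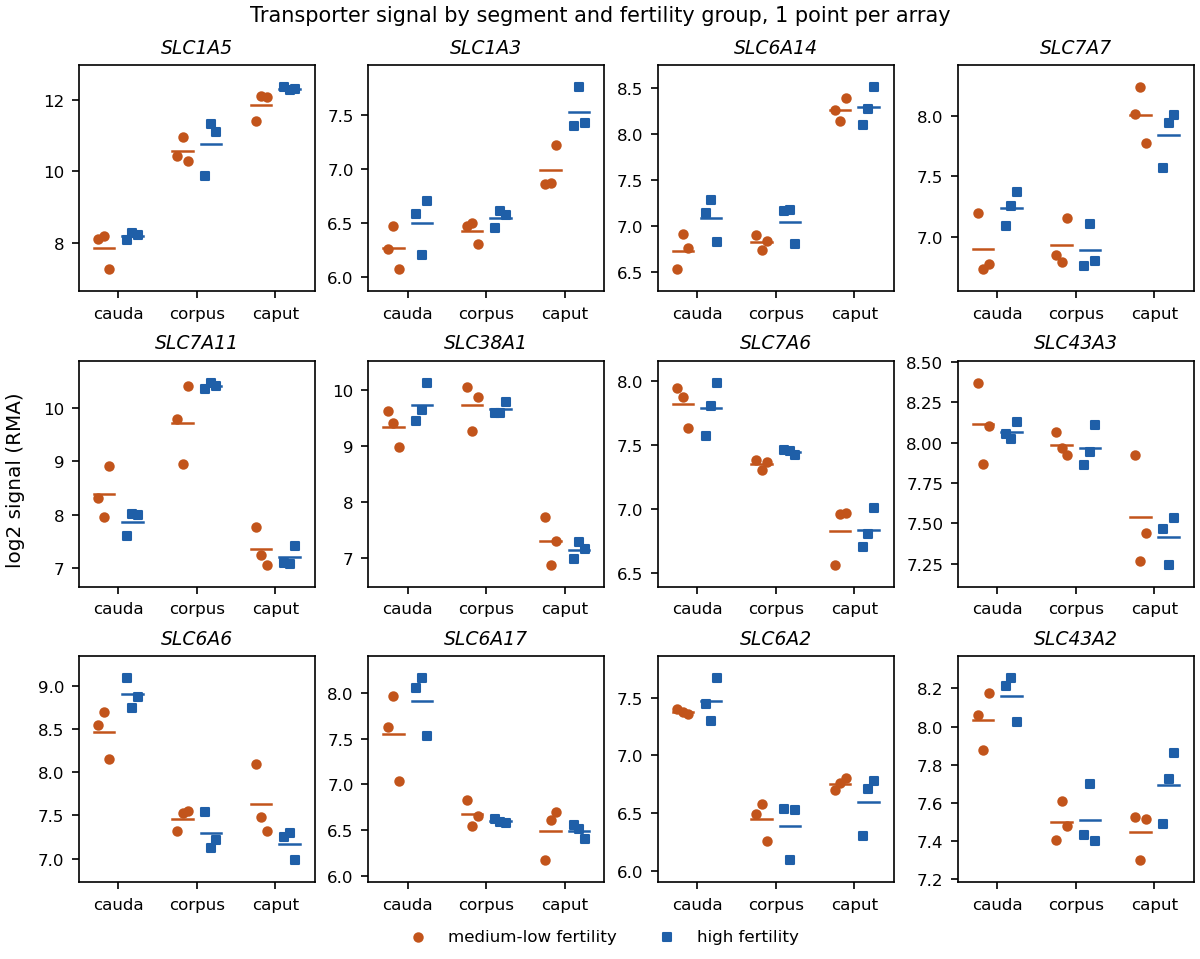
Log2 RMA signal (y axis, own scale per gene) of 12 transporters in cauda, corpus and caput (x axis). Each point is 1 array, orange circles are medium-low and blue squares high bulls, and bars are group means of 3. SLC1A5, SLC1A3, SLC6A14 and SLC7A7 are highest in the caput, SLC7A11 in the corpus, and SLC6A6, SLC6A17, SLC6A2 and SLC43A2 in the cauda.

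The SLC6A family joins carriers of amino acids, monoamines, GABA, taurine and creatine. In the cauda relative to the caput 6 of its 18 members rose and 2 fell, and in the corpus relative to the caput it was again 6 and 2. In the cauda relative to the corpus 3 rose and 2 fell. The members described next are those with the widest steps.

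SLC6A6, the taurine carrier, was highest in the cauda. Its signals were 8.15, 8.72 and 9.09 (lowest, median, highest) in the cauda, 7.12, 7.42 and 7.55 in the corpus and 6.98, 7.31 and 8.09 in the caput. Cauda arrays lay above all others, the closest caput array being medium-low replicate 1 at 8.09. The differences were 1.28 ± 0.13 for cauda minus caput (limma, adjusted p = 3.74e-06) and 1.30 ± 0.13 for cauda minus corpus (limma, adjusted p = 6e-06), about 2.43-fold and 2.47-fold. Corpus minus caput was -0.02 ± 0.13 and was not called. The rise over the caput was 0.83 in medium-low and 1.73 in high bulls, and the interaction over the segments was not called (limma F test, adjusted p = 0.548).

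SLC6A17, which loads neutral amino acids into synaptic vesicles in neurons, followed the same shape. It had 7.04, 7.80 and 8.16 in the cauda, 6.55, 6.61 and 6.83 in the corpus and 6.17, 6.54 and 6.70 in the caput, again as lowest, median and highest. The cauda stood above both other segments with no overlap, by 1.23 ± 0.15 over the caput and 1.09 ± 0.15 over the corpus (limma, adjusted p = 1.18e-05 and 6.6e-05). SLC6A2, the noradrenaline carrier of sympathetic nerve endings, had 7.29, 7.39 and 7.67 in the cauda, 6.09, 6.51 and 6.58 in the corpus and 6.30, 6.73 and 6.80 in the caput. It rose by 0.75 ± 0.10 over the caput and 1.01 ± 0.10 over the corpus (limma, adjusted p = 4.8e-05 and 5.04e-06). The dopamine carrier SLC6A3 and the serotonin carrier SLC6A4 were not called in either cauda comparison, with cauda minus caput at 0.05 ± 0.07 and 0.16 ± 0.24.

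SLC6A14, a broad carrier of neutral and basic amino acids found in epithelia, was a caput gene in these arrays. Its signals were 6.52, 6.86 and 7.28 in the cauda, 6.74, 6.87 and 7.17 in the corpus and 8.10, 8.27 and 8.51 in the caput (lowest, median, highest). No cauda or corpus array reached the lowest caput array. It fell by 1.38 ± 0.10 in the cauda and by 1.35 ± 0.10 in the corpus relative to the caput (limma, adjusted p = 1.35e-07 and 2.45e-07), with -0.03 ± 0.10 between cauda and corpus. SLC6A15, a carrier of branched-chain amino acids and proline known from brain, lay below the lower quartile of signal and stepped down along the duct, with medians of 4.69 in cauda, 5.27 in corpus and 6.30 in caput. It fell by 1.30 ± 0.17 in the cauda and by 0.75 ± 0.17 in the corpus relative to the caput (limma, adjusted p = 2.39e-05 and 0.00295), and its caput arrays differed by fertility group as given further on.

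The remaining SLC6A members include carriers with small calls and SLC6A11, whose caput values are given with the fertility comparison. SLC6A8, the creatine carrier, was among the brightest, with medians of 12.01 in cauda, 11.47 in corpus and 11.65 in caput. Its cauda minus caput difference was 0.51 ± 0.19 and did not pass (limma, adjusted p = 0.0554). Medium-low caput replicate 1 was at 10.22 and the other 5 caput arrays at 11.61 to 12.03. Without medium-low caput replicates 1 and 2, SLC6A8 was called higher in cauda than corpus (0.48 ± 0.10, limma adjusted p = 0.00211). SLC6A18, a carrier of neutral amino acids known from kidney, rose by 0.25 ± 0.07 in the cauda relative to the caput (limma, adjusted p = 0.0114), and its neighbour in the gene order, SLC6A19, the main neutral amino acid carrier of gut and kidney, was at 0.17 ± 0.10 and not called. The neighbours SLC6A12 and SLC6A13, both GABA carriers, were at 0.33 ± 0.09 (called) and 0.16 ± 0.07 (not called) for cauda minus caput.

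The SLC7A family, which holds both light chains and carriers that need no heavy chain, did not move as 1 set. In the cauda relative to the caput 3 of 12 rose and 3 fell, beside 17.2% of all probe sets higher and 15.1% lower. In the corpus relative to the caput 3 rose and 2 fell, beside 19.5% and 13.7%. In the cauda relative to the corpus 2 rose and 1 fell, beside 12.1% and 12.3%. The widest change was in SLC7A11 (probe set 12743103), the light chain of system xc-, which imports cystine for glutathione in exchange for glutamate.

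SLC7A11 peaked in the corpus. Its signals were 8.31, 7.97 and 8.91 in medium-low cauda and 7.60, 8.02 and 8.0 in high cauda. In the corpus they were 9.79, 8.94 and 10.42 in medium-low and 10.35, 10.47 and 10.40 in high bulls. In the caput they were 7.77, 7.25 and 7.07 in medium-low and 7.10, 7.09 and 7.42 in high bulls. Every corpus array exceeded every cauda and caput array, and medium-low corpus replicate 2, at 8.94, came closest to the cauda. Corpus minus caput was 2.78 ± 0.22 (limma, adjusted p = 2.64e-07), a 6.87-fold difference, and cauda minus corpus was -1.93 ± 0.22 (limma, adjusted p = 1.26e-05). The cauda was above the caput by 0.85 ± 0.22 with overlapping arrays (limma, adjusted p = 0.0067), a comparison named after its value was seen.

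SLC7A6 and SLC7A7 encode alternative light chains of system y+L, which release basic amino acids in exchange for neutral ones and sodium, and they changed in opposite directions. SLC7A6 had 7.57, 7.84 and 7.99 in the cauda, 7.3, 7.40 and 7.46 in the corpus and 6.56, 6.88 and 7.01 in the caput (lowest, median, highest). SLC7A7 had 6.73, 7.14 and 7.37 in the cauda, 6.76, 6.82 and 7.15 in the corpus and 7.57, 7.97 and 8.24 in the caput. The 3 segments of SLC7A6 did not overlap, and for SLC7A7 the caput lay above both others. SLC7A6 rose by 0.97 ± 0.09 in the cauda and 0.56 ± 0.09 in the corpus relative to the caput, and by 0.41 ± 0.09 in the cauda relative to the corpus (limma, adjusted p = 1.34e-06, 0.000292 and 0.00446). SLC7A7 fell by 0.86 ± 0.12 in the cauda and by 1.02 ± 0.12 in the corpus relative to the caput (limma, adjusted p = 4.79e-05 and 1.37e-05). The cauda minus corpus value of SLC7A7 was 0.16 ± 0.12 and was not called.

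The system L light chains SLC7A5 and SLC7A8, which exchange large neutral amino acids, are named after their values were seen. SLC7A5 had medians of 8.21 in cauda, 7.68 in corpus and 7.29 in caput, and rose by 0.70 ± 0.14 in the cauda relative to the caput (limma, adjusted p = 0.00138). Its arrays overlapped between segments, and its 0.41 ± 0.14 over the corpus (limma, adjusted p = 0.0497) lost its call when any one of 12 of the 18 arrays was left out. SLC7A8 fell by 0.53 ± 0.12 in the cauda relative to the caput (limma, adjusted p = 0.00368).

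SLC7A2, a carrier of arginine and lysine, is also named after its values were seen, because its caput arrays were unlike. It had 9.59, 10.03 and 9.91 in medium-low cauda and 9.79, 9.86 and 9.54 in high cauda. In the corpus it had 9.08, 8.99 and 9.19 in medium-low and 9.31, 9.20 and 8.97 in high bulls. In the caput it had 8.12, 8.36 and 10.67 in medium-low and 11.06, 11.10 and 10.91 in high bulls. Caput replicates 1 and 2 of the medium-low bulls lay below every other array, and the other 4 caput arrays above every other. With all arrays it fell by 0.91 ± 0.31 in the corpus relative to the caput (limma, adjusted p = 0.0357), a call lost when any one of 9 arrays was left out, and the cauda comparisons were not called. Without those 2 arrays it fell by 1.72 ± 0.11 in the corpus and by 1.06 ± 0.11 in the cauda relative to the caput, and the cauda was 0.66 ± 0.09 above the corpus (limma, adjusted p = 2.13e-07, 1.15e-05 and 0.000128). The other basic amino acid carriers SLC7A1 and SLC7A3 were not called in any segment comparison with all arrays. Without the 2 caput arrays SLC7A1 was lower in cauda than caput (-0.45 ± 0.14, limma adjusted p = 0.0241).

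The heavy chains were read beside their light chains. SLC3A2, which partners SLC7A5, SLC7A6, SLC7A7, SLC7A8, SLC7A10 and SLC7A11, was bright in every array, at 10.85 to 10.96 in the cauda, 10.93 to 11.19 in the corpus and 11.05 to 11.42 in the caput. It fell by 0.26 ± 0.07 in the cauda relative to the caput (limma, adjusted p = 0.00598), a call lost without medium-low caput replicates 1 and 2 (-0.18 ± 0.07, limma adjusted p = 0.0775), while corpus minus caput, at -0.17 ± 0.07, was not called. SLC3A1, the partner of the cystine and basic amino acid light chain SLC7A9, was at 5.42 to 5.68 in the corpus and 5.23 to 5.65 in the caput. In the cauda it spread widely, at 8.51, 5.69 and 5.88 in medium-low and 7.28, 7.55 and 9.03 in high bulls. It rose by 1.84 ± 0.40 over the caput and 1.76 ± 0.40 over the corpus (limma, adjusted p = 0.0021 and 0.00431). All its corpus and caput arrays lay below the lower quartile of 5.86, so these are not exact folds. Medium-low cauda replicate 2, at 5.69, was below it too, and replicate 3, at 5.88, close to it. SLC7A9 itself was below the lower quartile of signal and was at 0.16 ± 0.10 for cauda minus caput, not called. The other accessory partner measured, CLTRN, was at -0.66 in the cauda and -0.76 in the corpus relative to the caput (limma, adjusted p = 0.000226 and 8.59e-05). Without medium-low caput replicates 1 and 2 it was at -0.73 and -0.83.

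SLC38A carriers move glutamine and other small neutral amino acids with sodium. Of 10 members 3 rose and 0 fell in both the cauda and the corpus relative to the caput, with 4 and 3 higher and 1 and 1 lower at an unadjusted p under 0.05. Relative to the corpus, 3 rose and 1 fell in the cauda. Over all probe sets 17.2% were higher and 15.1% lower in cauda than caput. The shares were 19.5% and 13.7% in corpus than caput, and 12.1% and 12.3% in cauda than corpus. The leading member was SLC38A1 (probe set 12860556), a concentrating glutamine carrier.

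SLC38A1 was low in the caput and high after it. Its cauda arrays had 8.98, 9.54 and 10.13, its corpus arrays 9.28, 9.70 and 10.06 and its caput arrays 6.89, 7.23 and 7.74 (lowest, median, highest). The caput did not overlap the later segments, and cauda and corpus overlapped almost wholly. It rose by 2.31 ± 0.17 in the cauda and 2.47 ± 0.17 in the corpus relative to the caput (limma, adjusted p = 1.15e-07 and 8.24e-08), 4.96-fold and 5.54-fold, and cauda minus corpus, a value chosen after it was seen, was -0.16 ± 0.17. SLC38A1 and SLC1A5, both glutamine carriers, had called differences of opposite sign in cauda and corpus relative to the caput.

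In the reference gene order SLC38A2 lies between SLC38A1 and SLC38A4, which are all carriers of this family. SLC38A2, which is induced when amino acids are scarce, had medians of 11.88 in cauda, 11.39 in corpus and 11.48 in caput, and rose by 0.41 ± 0.09 over the caput and 0.45 ± 0.09 over the corpus (limma, adjusted p = 0.00254 and 0.00195). SLC38A4 was below the lower quartile of signal and rose by 0.47 ± 0.12 in the corpus relative to the caput (limma, adjusted p = 0.0069). Of the 3 neighbours only SLC38A1 changed by over 1 in any segment comparison. SLC38A10 rose by 0.30 ± 0.06 in the cauda over the caput and 0.34 ± 0.06 over the corpus (limma, adjusted p = 0.000603 and 0.000381), small steps with no overlap of arrays.

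SLC38A3, which can release as well as take up glutamine, showed the caput split again and is named after its values were seen. It had 10.48, 10.10 and 8.69 in medium-low cauda and 10.82, 10.30 and 10.83 in high cauda. The corpus gave 8.56, 9.44 and 8.11 in medium-low and 9.08, 9.29 and 8.69 in high bulls. The caput gave 7.45, 7.31 and 9.97 in medium-low and 9.88, 9.83 and 10.36 in high bulls. High bulls had it lowest in the corpus, and medium-low caput replicates 1 and 2 lay below all corpus arrays. It was 1.34 ± 0.42 higher in cauda than corpus (limma, adjusted p = 0.0291), a call lost when any one of 7 arrays was left out. Corpus minus caput was -0.27 ± 0.42 with all arrays, and without the 2 caput arrays it was -1.13 ± 0.36 (limma, adjusted p = 0.0277).

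SLC43A and SLC36A were the smallest families. SLC43A1 and SLC43A2 carry branched-chain and other large neutral amino acids by facilitated diffusion, and SLC43A3 carries purine nucleobases. All 3 rose in the cauda relative to the caput, by 0.87 ± 0.12, 0.53 ± 0.09 and 0.61 ± 0.11 (limma, adjusted p = 6.7e-05, 0.000227 and 0.000473). Of all probe sets 17.2% were called higher there. SLC43A2 had 7.87, 8.12 and 8.25 in the cauda, 7.40, 7.45 and 7.70 in the corpus and 7.3, 7.52 and 7.86 in the caput as lowest, median and highest. Its cauda arrays lay above both other segments, and it was 0.60 ± 0.09 higher in cauda than corpus (limma, adjusted p = 0.00013), while SLC43A1 and SLC43A3, named after their values were seen, had overlapping arrays. SLC43A3 also rose by 0.50 ± 0.11 in the corpus (limma, adjusted p = 0.00281).

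Of the proton-coupled SLC36A carriers, SLC36A1, found on lysosomes and the cell surface, rose by 0.41 ± 0.09 in the cauda relative to the corpus (limma, adjusted p = 0.00348). SLC36A4 fell by 0.40 ± 0.14 in the corpus relative to the caput (limma, adjusted p = 0.0408), a call lost when any one of 6 arrays was left out. Both are named after their values were seen. SLC36A2, which lies between SLC36A1 and SLC36A3 in the gene order, and SLC36A3 were below the lower quartile of signal and were not called.

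Markers of other cell types of the wall were counted too. Over all probe sets, 17.2% were higher and 15.1% lower in cauda than caput, and 19.5% and 13.7% in corpus than caput. All 11 smooth muscle markers measured were higher in cauda than caput and than corpus, and their mean level was 11.30 to 12.28 in cauda, 10.29 to 10.92 in corpus and 10.24 to 10.72 in caput arrays. All 11 endothelial markers were higher in cauda than caput, with mean levels of 8.45 to 8.78, 8.13 to 8.47 and 7.73 to 7.97 in cauda, corpus and caput. Fibroblast markers rose in 6 and fell in 1 of 10 in cauda relative to caput, with a wide mean level of 9.37 to 10.53 in cauda and 8.57 to 9.85 in caput. Nerve and glia markers rose in 3 and fell in 1 of 10, at 6.81 to 6.99 in cauda and 6.60 to 6.87 in caput. Immediate early and heat shock genes rose in 9 and fell in 1 of 15. Their part in the cauda rises of SLC6A6, SLC6A17, SLC6A2, SLC7A5, SLC38A2, SLC38A10 and the SLC43A genes was not tested.

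In the corpus, where SLC7A11 and SLC38A1 were high, 0 of 11 smooth muscle markers were called against the caput, while 9 of 11 endothelial markers rose. The epithelial list had 3 of 7 markers higher and 2 lower in corpus than caput, with mean levels of 10.11 to 10.38 in corpus and 9.5 to 9.91 in caput. Caput epithelium markers, such as GPX5, a secreted peroxidase, fell in 5 of 5 in both later segments, with mean levels of 6.39 to 7.15 in cauda, 6.40 to 8.52 in corpus and 11.94 to 13.02 in caput. Sperm and spermatid markers fell in 6 of 11 in both, and their level in medium-low caput arrays spread from 7.09 to 9.44, against 8.29 to 8.42 in high caput arrays. The part of these lists in the caput-high carriers SLC1A5, SLC1A3, SLC6A14 and SLC7A7 was not tested.

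Enzymes and other transporters of the same substrates were counted from lists of genes outside the 54. Over all probe sets, 17.2% were higher and 15.1% lower in cauda relative to caput. The shares were 19.5% and 13.7% in corpus relative to caput, and 12.1% and 12.3% in cauda relative to corpus. No list was tested against these shares. Of the creatine genes, the carrier SLC6A8 was not called between segments. GATM, the first enzyme of creatine synthesis, had 6.43, 6.30 and 6.29 in medium-low cauda, 6.02, 5.96 and 6.44 in high cauda, 11.03, 11.39 and 10.16 in medium-low caput and 10.03, 10.42 and 10.38 in high caput. It differed by -4.33 ± 0.18 in the cauda and by -4.05 ± 0.18 in the corpus relative to the caput (limma, adjusted p = 3.21e-10 and 9.31e-10). CKMT1A, a mitochondrial creatine kinase, rose by 2.75 ± 0.15 in the cauda and 0.93 ± 0.15 in the corpus (limma, adjusted p = 3.98e-09 and 0.000216). Of 6 genes of this list 1 rose and 1 fell in cauda relative to caput, 2 rose and 1 fell in corpus relative to caput, and 1 rose in cauda relative to corpus.

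Of 15 enzymes of glutathione and taurine synthesis, 4 rose and 2 fell in the cauda and 3 rose and 3 fell in the corpus, both relative to the caput. Around SLC7A11, the subunits of the first enzyme of glutathione synthesis differed in the cauda relative to the corpus, where GCLC rose by 0.47 ± 0.11 and GCLM fell by 0.53 ± 0.12 (limma, adjusted p = 0.00394 and 0.00495). ADO, a thiol dioxygenase that makes the taurine precursor hypotaurine, fell by 1.19 ± 0.08 in the cauda and by 1.04 ± 0.08 in the corpus relative to the caput (limma, adjusted p = 7.1e-08 and 3.9e-07). GGT5, a relative of the glutathione-cleaving enzyme GGT1, rose by 1.01 ± 0.18 in the cauda relative to the caput (limma, adjusted p = 0.000545), and by 0.60 ± 0.13 without medium-low caput replicates 1 and 2 (limma, adjusted p = 0.0023).

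Of 15 enzymes of glutamine, glutamate, arginine and GABA, 6 rose and 4 fell in cauda relative to caput, 2 rose and 4 fell in corpus relative to caput, and 5 rose and 1 fell in cauda relative to corpus. GPT2, which makes glutamate and pyruvate from alanine in mitochondria, peaked in the corpus as SLC7A11 did. It rose by 0.99 ± 0.17 in corpus over caput and fell by 2.42 ± 0.17 in cauda relative to corpus (limma, adjusted p = 0.000528 and 1.51e-07). ASS1, an enzyme of arginine synthesis, rose by 1.01 ± 0.12 and ARG2, a mitochondrial arginase, by 0.54 ± 0.13 in cauda over caput (limma, adjusted p = 1.18e-05 and 0.00456).

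**Figure D3:**
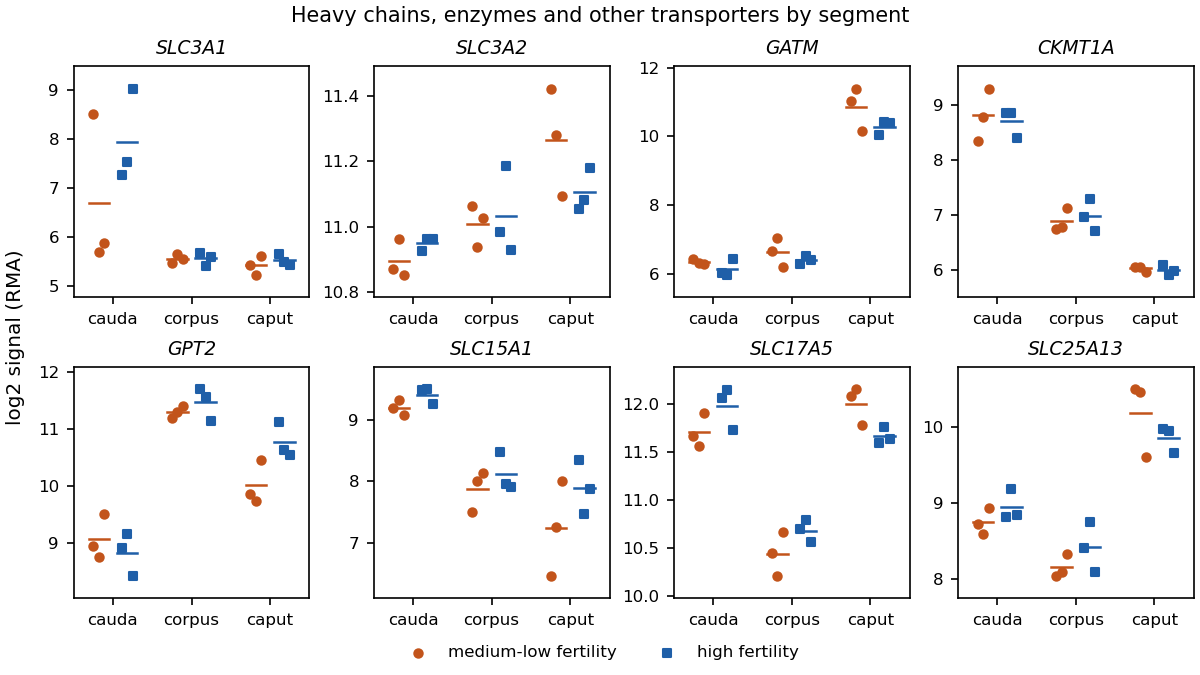
Log2 RMA signal (y axis, own scale per gene) of heavy chains, enzymes and other transporters in cauda, corpus and caput (x axis). Each point is 1 array, orange circles are medium-low and blue squares high bulls, bars are group means of 3. SLC3A1 spreads from 5.69 to 9.03 in the cauda, and GATM is high only in the caput of the 3 segments.

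Among 15 other amino acid and peptide transporters, 2 rose and 2 fell in cauda relative to caput, 1 rose and 5 fell in corpus relative to caput, and 6 rose and 1 fell in cauda relative to corpus. SLC15A1, the proton-coupled oligopeptide carrier, rose by 1.74 ± 0.22 in the cauda over the caput and 1.31 ± 0.22 over the corpus (limma, adjusted p = 2.15e-05 and 0.000455). SLC17A5, a lysosomal carrier of sialic acid and acidic amino acids, fell by 1.27 ± 0.10 in the corpus relative to the caput (limma, adjusted p = 3.68e-07), and was 1.28 ± 0.10 higher in cauda than corpus (limma, adjusted p = 4.6e-07). SLC25A13, a mitochondrial aspartate and glutamate carrier, fell by 1.74 ± 0.15 in the corpus and by 1.18 ± 0.15 in the cauda relative to the caput (limma, adjusted p = 9.16e-07 and 3.04e-05).

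Genes that answer amino acid supply were called in both directions, beside 17.2% of all probe sets higher and 15.1% lower in cauda relative to caput. Of 21 genes of the ATF4 starvation response 6 rose and 2 fell in cauda relative to caput, and 7 rose and 2 fell in corpus relative to caput. MTHFD2, a mitochondrial folate enzyme, rose by 1.48 ± 0.17 and PYCR1, a proline synthesis enzyme, fell by 1.67 ± 0.21 in cauda relative to caput (limma, adjusted p = 1.01e-05 and 2.31e-05). Without medium-low caput replicates 1 and 2 the values were 1.63 and -1.20. Of 16 cytosolic aminoacyl-tRNA synthetases 2 rose and 6 fell in cauda relative to caput, with WARS1 up by 0.97 ± 0.11 and MARS1 at -0.70 ± 0.10 (limma, adjusted p = 5.81e-06 and 8.15e-05). Of 21 genes of amino acid sensing by mTORC1, a kinase complex that promotes growth, 5 rose and 6 fell in cauda relative to caput. There CASTOR2, a relative of the arginine sensor CASTOR1, fell by 2.04 ± 0.12 (limma, adjusted p = 1.13e-08). CASTOR1 itself rose by 0.53 ± 0.09 (limma, adjusted p = 0.000494), and by 0.35 without medium-low caput replicates 1 and 2. RRAGD, a lysosomal GTPase of this pathway, rose by 1.5 ± 0.27 (limma, adjusted p = 0.000539), where medium-low caput replicates 1 and 2 had 8.23 and 8.64 and the remaining caput arrays 10.40 to 10.65. Without those 2 arrays it rose by 0.80 ± 0.11 (limma, adjusted p = 6.64e-05). Of 10 enzymes of branched-chain amino acid breakdown 1 rose and 3 fell in cauda relative to caput, led by BCKDHA, a subunit of the dehydrogenase complex, at -0.83 ± 0.11 (limma, adjusted p = 3.56e-05).

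The segment calls mostly had the same sign in both fertility groups, and fewer were called in each group alone. Of the 22 cauda over caput calls 22 had the same sign in medium-low and in high bulls alone, as did 19 of 21 corpus over caput and 19 of 19 cauda over corpus calls. Both groups alone gave the same call in 12, 8 and 6 of these.

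The study set bulls of medium-low against bulls of high fertility, and few transporters differed between them. In the caput 0 of 54 were higher and 2 lower in medium-low bulls, against 0.0598% higher and 0.153% lower over all probe sets, with 8 higher and 9 lower at an unadjusted p under 0.05. In the corpus 0 were higher and 0 lower (limma), against 0% and 0.00374% of all probe sets. At an unadjusted p under 0.05, 0 were higher and 1 lower there. In the cauda 0 were higher and 0 lower (limma), against 0% and 0.0112% of all probe sets, with 2 higher and 4 lower at an unadjusted p under 0.05. Whether the fertility difference varied between segments was called for 0 of 54 (limma F test), against 0.00374% of all probe sets, with 10 at an unadjusted p under 0.05. Over the segments 0 were higher and 0 lower (limma), against 0% and 0.00374%, with 3 higher and 10 lower at an unadjusted p under 0.05.

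**Figure D4:**
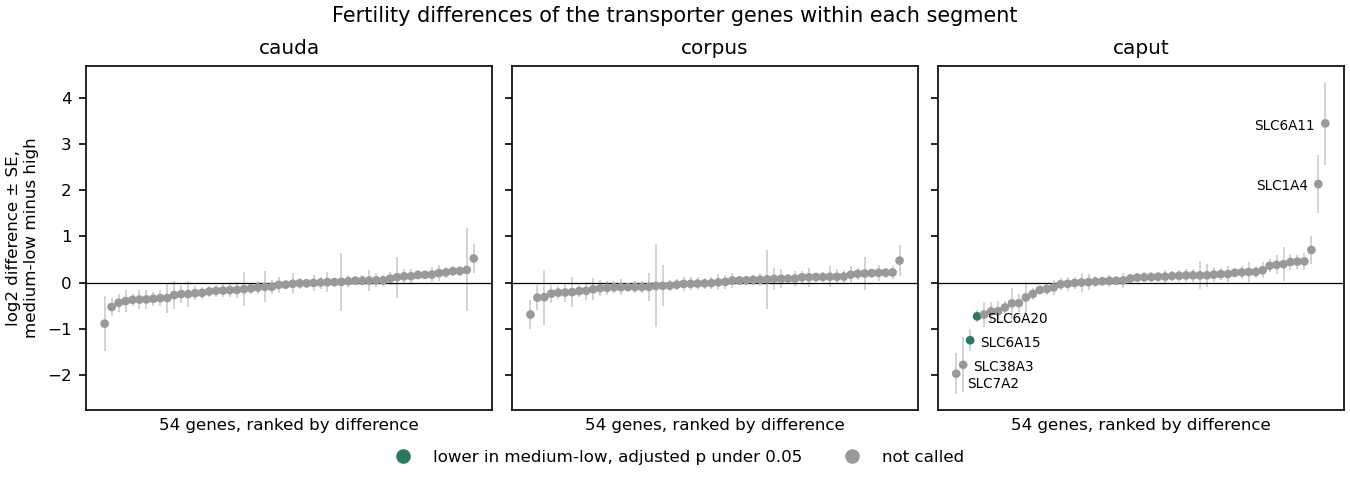
Log2 difference, medium-low minus high (y axis, ± SE of the model), of the 54 transporter genes within cauda, corpus and caput, ranked along the x axis within each panel. Green points passed an adjusted p of 0.05, and both are in the caput. The caput panel is the widest, with SLC6A11 at 3.44 and SLC7A2 at -1.97, neither of which passed.

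The 2 caput calls were in SLC6A15 and SLC6A20, and both depend on which medium-low caput arrays are kept. SLC6A20, a carrier of proline and other imino acids, had 7.42, 7.71 and 8.04 in medium-low caput and 8.44, 8.38 and 8.54 in high caput, a difference of -0.73 ± 0.13 (limma, adjusted p = 0.0427). SLC6A15 had 5.25, 5.05 and 6.01 in medium-low caput and 6.64, 6.58 and 6.85 in high caput, a difference of -1.25 ± 0.23 (limma, adjusted p = 0.0456). All 3 medium-low arrays lay below all 3 high arrays in both genes. Without medium-low caput replicates 1 and 2 the values were -0.41 ± 0.13 and -0.67 ± 0.27 and were not called, with 1 medium-low array left that is assumed to vary like the other groups. With the replicate number as a random block SLC6A20 kept its call and SLC6A15 did not (limma, adjusted p = 0.0469 and 0.056). SLC6A20 was lost when any one of 16 of the 18 arrays was left out and SLC6A15 when any one of 17 was. The segment calls of SLC6A20, 0.27 ± 0.09 for cauda minus caput (limma, adjusted p = 0.0371), were also lost without the 2 arrays.

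The other caput differences did not pass. SLC7A2 was at -1.97 ± 0.44 (limma, adjusted p = 0.063) and SLC6A8 at -0.69 ± 0.27 (limma, adjusted p = 0.162), with no overlap of the groups in either. The medium-low caput arrays of SLC7A2 split, at 8.12, 8.36 and 10.67, against 10.91 to 11.10 in high caput. The SLC7A2 difference was -2.78 without medium-low caput replicate 3. In SLC6A8 medium-low caput replicate 1 was at 10.22, and without it the difference was -0.23. SLC6A6 was at 8.09, 7.48 and 7.32 in medium-low caput and at 7.25, 7.3 and 6.98 in high caput, a difference of 0.46 ± 0.19 (limma, adjusted p = 0.185). SLC6A3 was at 0.21 ± 0.10 (limma, adjusted p = 0.234).

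Further large differences that did not pass were also in genes whose medium-low caput arrays split. SLC6A11, a GABA carrier of brain, had 10.18, 9.38 and 4.70 in medium-low caput and 4.61, 4.58 and 4.74 in high caput. The other 12 arrays, of cauda and corpus, lay between 4.42 and 5.13. Only medium-low caput replicates 1 and 2 of the 18 arrays were above 5.13. The difference was 3.44 ± 0.90 (limma, adjusted p = 0.0683), and 0.05 ± 0.21 without the 2 arrays. In SLC1A4 it was 2.13 ± 0.63 (limma, adjusted p = 0.0804), and -0.18 ± 0.31 without them. In SLC38A3 it was -1.78 ± 0.59 (limma, adjusted p = 0.106), and -0.05 ± 0.58 without them. With medium-low caput replicate 3 left out instead, the differences widened to 5.14 in SLC6A11, 3.28 in SLC1A4 and -2.64 in SLC38A3. Their lowest adjusted p with 1 array left out was 5.67e-10, 2.56e-07 and 0.000694 (limma). These 3 genes were chosen after their values were seen.

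**Figure D5:**
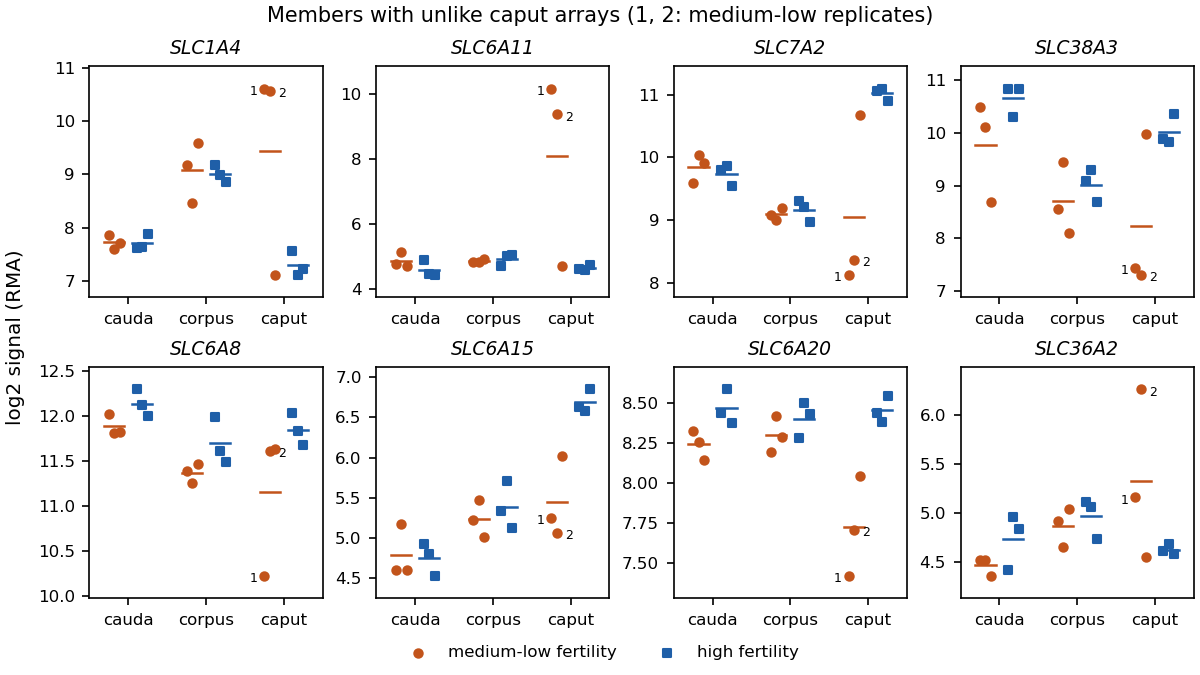
Log2 RMA signal (y axis, own scale per gene) of 8 transporters in cauda, corpus and caput (x axis). Each point is 1 array, orange circles are medium-low and blue squares high bulls, bars are group means of 3, and medium-low caput replicates 1 and 2 are numbered. In SLC6A11 those arrays are at 10.18 and 9.38 and the other 16 between 4.42 and 5.13.

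The same 2 caput arrays were also unlike in genes around the carriers. GGT1, which cleaves glutathione outside the cell, had 8.01 and 8.75 there, with 9.84 to 10.19 in the remaining 4 caput arrays. CKB, the cytosolic creatine kinase, was at 10.14 and 10.30, against 11.69 to 11.86, and PHGDH, the first enzyme of serine synthesis, at 11.64 and 11.61, against 10.27 to 10.79. Their mean sperm levels were 7.09 and 9.44, with 8.29 to 9.37 in the other caput arrays, and their mean caput epithelium levels were 12.80 and 13.02, with 11.94 to 12.37 in the others. The part of either list in these differences was not tested. Of the 9 pathway lists, the count of called genes in the caput fertility comparison was 1, SLC66A1, a lysosomal exporter of basic amino acids, at 8.74, 8.78 and 9.39 in medium-low caput and 10.02, 9.71 and 9.81 in high caput (-0.88 ± 0.15, limma adjusted p = 0.0427). Without medium-low caput replicates 1 and 2 SLC66A1 was at -0.45 ± 0.15 and was not called (limma, adjusted p = 0.969).

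In the cauda, the differences named by rule, with no overlap of the groups, were 0.25 ± 0.11 in SLC7A3, 0.25 ± 0.10 in SLC6A13 and -0.44 ± 0.19 in SLC6A6 (limma, adjusted p = 0.822, 0.819 and 0.822), and none passed. In the corpus no gene met the naming rule. Over the segments, each replicate number of a fertility group was averaged over its 3 arrays. SLC38A3 then had means of 8.83, 8.95 and 8.92 for the medium-low and 9.92, 9.81 and 9.96 for the high replicate numbers. The medium-low means were alike because unlike arrays offset each other. Medium-low replicates 1 and 2 had 7.45 and 7.31 in caput and 10.48 and 10.10 in cauda, while replicate 3 had 9.97 and 8.69. The small SE thus rests on the grouping by number, which the labels do not tie to bulls. The groups did not overlap, and the difference of -0.995 ± 0.07 did not pass (limma, adjusted p = 0.0502). With corpus and cauda arrays only, a choice made with the values already seen, it was -0.60 (limma, adjusted p = 0.879). Its adjusted p passed under 5 other settings given in the closing section. The other genes named by rule over the segments, none of which passed, were SLC6A11 at 1.21 ± 0.45, SLC1A4 at 0.74 ± 0.26, SLC7A3 at 0.19 ± 0.08, SLC6A15 at -0.45 ± 0.09, SLC6A8 at -0.42 ± 0.15 and SLC6A20 at -0.35 ± 0.07 (limma, adjusted p = 0.537 each).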

How the data were processed

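RNA of 18 epididymis samples was hybridised to 1-colour Affymetrix bovine gene arrays. The authors deposited log2 signals per probe set, made by RMA (background correction, quantile normalization and summary of probes), and the submitters' processing notes name Affymetrix Expression Console, RMA and Partek 6.5. Detection calls were not used here, array number rather than read depth limits precision, and 0 sample columns were left unused.

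From these values, limma 3.58.1 in R 4.3.3 fitted 6 group means over 18 arrays and 26773 probe sets, with Benjamini-Hochberg adjusted p under 0.05 as the threshold. Segment differences averaged both fertility groups, fertility was tested within each segment, its change over segments by an F test, and fertility over the segments on means per replicate number. The annotation named 1 gene on 18457 probe sets, several on 688 and none on 7628. SLC38A9 had 2 probe sets, and 53 of the 54 genes matched the reference gene table by number. The code was tested on simulated data. A planned description of promoter motifs was not run.

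Members and lists were chosen with earlier results of these data known. Named by rule were, per segment comparison, up to 10 called members per direction without overlap of arrays. Per fertility comparison the rule took all called, filled to 4 per direction by unadjusted p under 0.05 without overlap. It also took heavy chains, up to 4 called genes per pathway list and members adjacent in the genome. The deviations of same-numbered arrays of a fertility group from their group means correlated at over 0.1 in 17 of 18 pairs (range 0.07 to 0.55). The criterion for pairing asked for every pair over 0.1 and was not met. Yet 17 of the 18 pairs correlated better than with either other number, so the numbers may still mark bulls. Alternatives were normalization, weights, prior, filters, probe set choice, arrays left out, single fertility groups and a replicate block. The corpus and cauda setting, and list genes without 2 caput arrays, were chosen after seeing the data.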

Additional observations from a re-analysis of the deposited data

Results flagged for a closer look

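In 162 sets of 6 arrays (54 genes in 3 segments), 13 had 1 array whose gap to the nearest other array took more of the range than Dixon's critical value for 6 samples allows. Chance gives about 1 in 20. Medium-low caput replicate 1 was such an array for SLC1A5, lowest at 11.39 with the others at 12.07 to 12.35. It was also lowest for SLC6A8, at 10.22, and highest for SLC1A7, at 6.13. Medium-low cauda replicate 3 was lowest for SLC1A5 at 7.27, for SLC38A3 at 8.69 and for SLC43A1 at 8.57, with the other cauda arrays at 8.08 to 8.28, 10.10 to 10.83 and 8.87 to 9.05.

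The other 7 sets each had 1 such array. Medium-low corpus replicate 2 was highest for the serotonin carrier SLC6A4, at 8.75 with the others at 7.01 to 7.35. Medium-low caput replicate 2 was highest for SLC36A2, at 6.27 with the others at 4.55 to 5.16. High cauda replicate 3 was highest for SLC6A16 at 7.22, high cauda replicate 2 for SLC38A6 at 8.46 and medium-low cauda replicate 2 for SLC38A11 at 5.17. Medium-low corpus replicate 1 was highest for SLC6A17 at 6.83, and high caput replicate 1 was lowest for SLC6A2 at 6.30. No cause of these values was tested.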

How the results depend on the processing

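The members called in the caput fertility comparison (2) numbered 1 with dim probe sets left out, after quantile or cyclic loess normalization and with a random replicate block, 14 with array weights, 5 at unadjusted p with at least a 2-fold difference, and 0 with only the caput arrays or without medium-low caput replicates 1 and 2. Leaving out arrays gave 0 to 16, the highest without medium-low caput replicate 3. For the change of the fertility difference over segments (0) the counts were 6 with array weights, 3 under the unadjusted rule and 0 to 7 with arrays left out, 7 without medium-low caput replicate 3. Over the segments (0) they were 1 with medians subtracted, a trended and robust prior, 1 probe set per gene, the mean of probe sets or the unadjusted rule, and 0 to 4 with a replicate number left out, 4 without medium-low replicate 3. SLC38A3 passed there with adjusted p of 0.0308, 0.0319, 0.0276, 0.0273 and 0.00742 under the first 4 and the last of these settings, in a range of 0.00742 to 0.879 over all settings. Segment counts under the unadjusted rule were 8 (cauda over caput), 6 (corpus over caput) and 7 (cauda over corpus). With arrays left out they were 20 to 27, 14 to 25 and 12 to 23, with 14 without high corpus replicate 3, and 12 without high cauda replicate 3 or medium-low cauda replicate 1. Medium-low bulls alone gave 13 for corpus over caput and 9 for cauda over corpus, and high bulls alone 9 for the last. The replicate block as a random term gave 24, 26 and 20 segment calls, and as a fixed term 23, 23 and 14. The replicate numbers are not known to pair the samples.

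Signs that turned were in SLC1A4, SLC6A8, SLC6A11, SLC6A20, SLC7A2, SLC38A1 and SLC38A3. For corpus minus caput, SLC6A8 was -0.040 with medians subtracted and SLC38A3 was 0.0076 with array weights. Medium-low bulls alone gave -0.35 in SLC1A4, 0.46 in SLC38A3 and 0.041 in SLC7A2, and high bulls alone 0.28 in SLC6A11, -0.052 in SLC6A20 and -0.15 in SLC6A8. For cauda minus caput, medium-low bulls alone gave 0.80 in SLC7A2 and high bulls alone 0.41 in SLC1A4, and for cauda minus corpus high bulls alone gave 0.082 in SLC38A1. Without medium-low caput replicates 1 and 2, SLC6A11 was 0.22 and SLC6A8 -0.21 for corpus minus caput, SLC1A4 0.51 and SLC6A11 0.057 for cauda minus caput, and SLC1A4 -0.18 between fertility groups in the caput. With medium-low cauda replicate 3 out as well, SLC6A11 was 0.10 and SLC1A4 0.51 for cauda minus caput, SLC6A11 0.22 and SLC6A8 -0.21 for corpus minus caput, and SLC1A4 -0.18 in the caput. With 1 array left out, SLC6A8 ranged from -0.20 to 0.15 and SLC38A3 from -0.50 to 0.16 for corpus minus caput, and SLC7A2 from -0.48 to 0.16 for cauda minus caput. The causes were not tested. Signals near background limit SLC6A11 and SLC6A15.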

Other observations

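Small called differences with overlapping arrays were left aside above, and these carriers were chosen after their values were seen. SLC38A5, a glutamine carrier, rose by 0.32 ± 0.07 in the corpus relative to the caput (limma, adjusted p = 0.00268), with medians of 6.41 in corpus and 6.04 in caput. SLC7A10, a light chain that carries small neutral amino acids and D-serine, rose by 0.32 ± 0.12 there (limma, adjusted p = 0.0472), and SLC6A7, a proline carrier of brain, by 0.22 ± 0.07 (limma, adjusted p = 0.0233). SLC7A4 fell by 0.26 ± 0.09 in the cauda relative to the caput (limma, adjusted p = 0.0367), with medians of 7.42 in cauda and 7.75 in caput. None of the 4 exceeded a log2 difference of 0.5 between segments.

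Markers of other epithelial cells of the duct were also called between segments, which does not tell cell number from RNA per cell. Basal cell markers rose in 5 of 6 in the corpus relative to the caput, beside 19.5% of all probe sets. Their mean levels were 8.62 to 8.88 in corpus and 8.01 to 8.47 in caput arrays. Clear cell markers fell in 4 of 6 in the cauda relative to the caput, beside 15.1% of all probe sets. Their mean levels were 6.12 to 6.41 in cauda and 6.87 to 7.55 in caput arrays. Without medium-low caput replicates 1 and 2, CA2 was at -1.40 instead of -2.75. The other 3 called were then at -1.50 (ATP6V0D2), -0.59 (FOXI1) and -0.29 (ATP6V1B1), instead of -1.11, -0.50 and -0.28. The part of either list in the transporter differences was not tested.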
